A study of Mus musculus with 6 samples.

Results

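Homeostatic microglia are recognised by a set of surface, secreted and transport proteins, and 8 genes of that set are described here: Tmem119, Olfml3, Fcrl2, Gpr34, Slc2a5, Crybb1, Golm1 and Slco2b1. They were chosen by gene symbol, as established microglia markers outside the P2 receptor, fractalkine and siglec families. All 8 were found among the 41079 genes of the tables. Of these, 6 rose in stimulated microglia, from 2.52-fold for Gpr34 to 24.7-fold for Olfml3, while Slc2a5 and Crybb1 stayed at the edge of detection in both conditions.

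Microglia are the resident macrophages of the brain. In the healthy tissue they keep an expression programme that depends on transforming growth factor β and on the CSF1 receptor, whose ligands are CSF1 and IL-34, and cells taken into standard culture lose much of it. The genes described here are read mainly as identity markers. Tmem119 encodes a single-pass membrane protein that separates microglia from most other macrophages, Fcrl2 (older symbol Fcrls) an Fc receptor-like scavenger receptor and Gpr34 a G protein-coupled receptor for lysophosphatidylserine. Olfml3 encodes a secreted glycoprotein with an olfactomedin domain, and Golm1 a Golgi membrane protein that can be cleaved and released. Slco2b1 (OATP2B1) and Slc2a5 (GLUT5) transport organic anions and fructose, and Crybb1 encodes a β-crystallin best known from the eye lens.

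RNA was sequenced from 6 libraries of primary microglia of C57Bl/6N mice aged 1 to 3 days, 3 from control and 3 from stimulated cultures. In both groups the cells had been grown in mixed flasks that received 20% L-929 conditioned medium (a source of CSF1) on days 8, 13, 21 and 29. Microglia were collected by shaking for 5.5 h. By the methods a flask was harvested repeatedly, between and after these additions, so earlier harvests had received fewer of them. The methods do not say which harvest gave each library. Control cells were kept in serum-free DMEM/F12. Stimulated cells also received human TGF-β, human IL-34 and CX3CL1 at 100 ng/mL each, and by the study's methods cholesterol, insulin-transferrin-selenium and a collagen IV coating, so the parts played by the single components cannot be told apart. By the methods each flask pooled the brains of a few neonates, and the time under stimulation before RNA isolation is not given in the sources used here. The labels number the libraries and the methods call them biological replicates, and the p-values below measure the spread between these libraries.

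Libraries held 20628148 to 27261839 counts, and replicates differed by more than sampling noise. The defining genes of microglia were abundant throughout: the 10 pan-microglial genes, among them Csf1r, Itgam and C1qa, summed to 14970 to 17550 CPM (counts relative to library size, scaled by the trimmed mean of M values) in control and 18550 to 26980 in stimulated libraries. Each list of markers of other cells summed to far less than the pan-microglial genes, though not all were low, and some moved with the condition. The 8 astrocyte markers (7 in the tables) summed to 36.9 to 38.6 CPM in control and 24.9 to 29.9 in stimulated libraries. Of these 7, only Aldh1l1 was called at an adjusted p under 0.05 (edgeR), as lower, with means of 16.5 and 4.64 CPM. With library size alone, or scaled to the pan-microglial genes, 2 of the 7 were called lower. The 7 neuronal markers summed to 5.13 to 6.08 and 6.96 to 8.13 CPM, and the 6 oligodendrocyte ones to 135 to 151 and 164 to 202. The 6 fibroblast markers summed to 150.7 CPM in stimulated replicate 3 and to 31.0 to 48.8 in the other 5 libraries. The 4 endothelial markers summed to 78.8 to 94.4 CPM in control and 271 to 349 in stimulated libraries, most of it Flt1 (means 83.0 and 298), while Cldn5 had 2 counts in all. The 6 markers of border-associated macrophages summed to 475 to 523 CPM and 264 to 368, with Mrc1 at means of 329.9 and 62.7. They did not move together: of 4 tested, Mrc1 was called lower (log2 -2.40) and 2 higher, F13a1 (log2 1.60) and Pf4 (0.53). The call of Pf4 was lost under some other scalings. The 4 monocyte markers summed to 0.532 to 4.17 CPM. The part of these cells in the marker values was not tested. In bulk RNA, fewer cells of a type and less RNA per cell cannot be told apart.

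Among the membrane proteins, Tmem119 changed most. Its 3 control libraries stood at 5.99, 6.12 and 6.77 CPM and its stimulated libraries at 82.2, 103 and 105 CPM. Every stimulated library was thus far above every control library. The mean went from 6.29 ± 0.420 to 96.8 ± 12.6 CPM (SD, n = 3), a log2 fold change of 3.94 (SE 0.13) with an adjusted p of 4.1e-08 (quasi-likelihood test of edgeR, Benjamini-Hochberg over all genes tested). The gene lies on the minus strand of chr5:113931781-113938577 (GRCm39).

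Fcrl2, on the minus strand of chr3:87156616-87181827, was already abundant without stimulation. Control libraries held 541, 586 and 578 CPM and stimulated libraries 1654, 2301 and 2193 CPM. The groups did not overlap, and stimulated replicate 1 was the lowest of its group, as it was for every marker that rose. The mean rose from 568 ± 23.7 to 2049 ± 347 CPM (SD, n = 3), or 3.61-fold, with a log2 fold change of 1.85 (SE 0.13) and an adjusted p of 5.4e-06 in the same edgeR test.

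Gpr34, the lysophosphatidylserine receptor on the plus strand of chrX:13489625-13507116, changed least of the 6 that rose. Control libraries gave 43.8, 55.5 and 44.2 CPM and stimulated libraries 112, 135 and 115 CPM. The highest control library, replicate 2, stayed well below the lowest stimulated library. The means were 47.8 ± 6.69 and 121 ± 12.2 CPM (SD, n = 3), a 2.52-fold rise (log2 1.33, SE 0.12, adjusted p = 2.1e-05, edgeR).

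Of the secreted or releasable products, Olfml3 had the largest rise of all the markers. Its control libraries held 25.2, 28.5 and 30.6 CPM, its stimulated libraries 566, 801 and 718 CPM. The distance between the groups was many times the spread within either. The stimulated libraries differed among themselves more than the control ones, with coefficients of variation of 17.2% and 9.72%. The mean went from 28.1 ± 2.73 to 695 ± 119.6 CPM (SD, n = 3), 24.7-fold (log2 4.63, SE 0.15, adjusted p = 4.9e-08, edgeR). Among the 14618 genes tested its log2 fold change ranked 28. Olfml3 lies on the minus strand of chr3:103629538-103645322.

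Golm1 was the most even of the markers across replicates. Control libraries held 45.0, 42.9 and 45.8 CPM and stimulated libraries 350.4, 359 and 353 CPM. The coefficient of variation was 3.44% in control and 1.18% in stimulated libraries, so that the 7.94-fold rise (44.6 ± 1.53 to 354 ± 4.17 CPM, SD, n = 3) stood far outside either spread (log2 2.99, SE 0.08, adjusted p = 3.0e-08, edgeR). Golm1 lies on the minus strand of chr13:59782440-59828564 and shares 1758 exonic bases with Naa35 on the opposite strand. Whether the counting used strand is not given, so reads from the shared stretch cannot be told apart. In control libraries Naa35 had 661, 753 and 872 counts beside 1030, 1051 and 1252 for Golm1, and in stimulated libraries 810, 920 and 825 beside 7401, 8422 and 7296. Naa35 was itself called higher (log2 0.36, adjusted p = 0.010, edgeR), and its part in the Golm1 counts was not tested.

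The transporters divided. Slco2b1, on the minus strand of chr7:99306783-99360547, held 45.1, 41.1 and 38.1 CPM in control and 397, 417 and 402 CPM in stimulated libraries, again tight groups far apart. The rise was 9.79-fold, from 41.4 ± 3.51 to 405 ± 10.3 CPM (SD, n = 3), with a log2 fold change of 3.29 (SE 0.10) and an adjusted p of 4.0e-08 by edgeR.

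Slc2a5, the fructose transporter on the plus strand of chr4:150196268-150228931, was barely detected. Control libraries held 2, 5 and 1 counts and stimulated libraries 1, 2 and 7, with overlapping groups. It fell below the filter on low counts and was not tested in the main comparison. Scaled to library size, the summed counts of 8 and 10 gave a ratio of 1.43 with an exact 95% interval of 0.508 to 4.17, which covers counting error only. That interval leaves out the spread between replicates, so it sets no upper limit on a rise of Slc2a5.

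Crybb1, on the plus strand of chr5:112400811-112417965, was likewise near the limit of detection. Control libraries gave 1, 3 and 9 counts and stimulated libraries 11, 3 and 7, with no separation. The ratio of the sums, 13 and 21, was 1.85 (exact 95% interval 0.883 to 4.02, counting error only), and a difference within it was not detectable at this depth. When all genes with a count were fitted, the adjusted p was 0.82 for Slc2a5 and 0.56 for Crybb1 (edgeR's quasi-likelihood test), with log2 fold changes of 0.48 (SE 1.13) and 0.91 (SE 0.87). Cryba4 overlaps Crybb1 on the opposite strand by 100 exonic bases, and its 212 counts did not differ between conditions past the threshold (log2 -0.29).

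**Figure D1:**
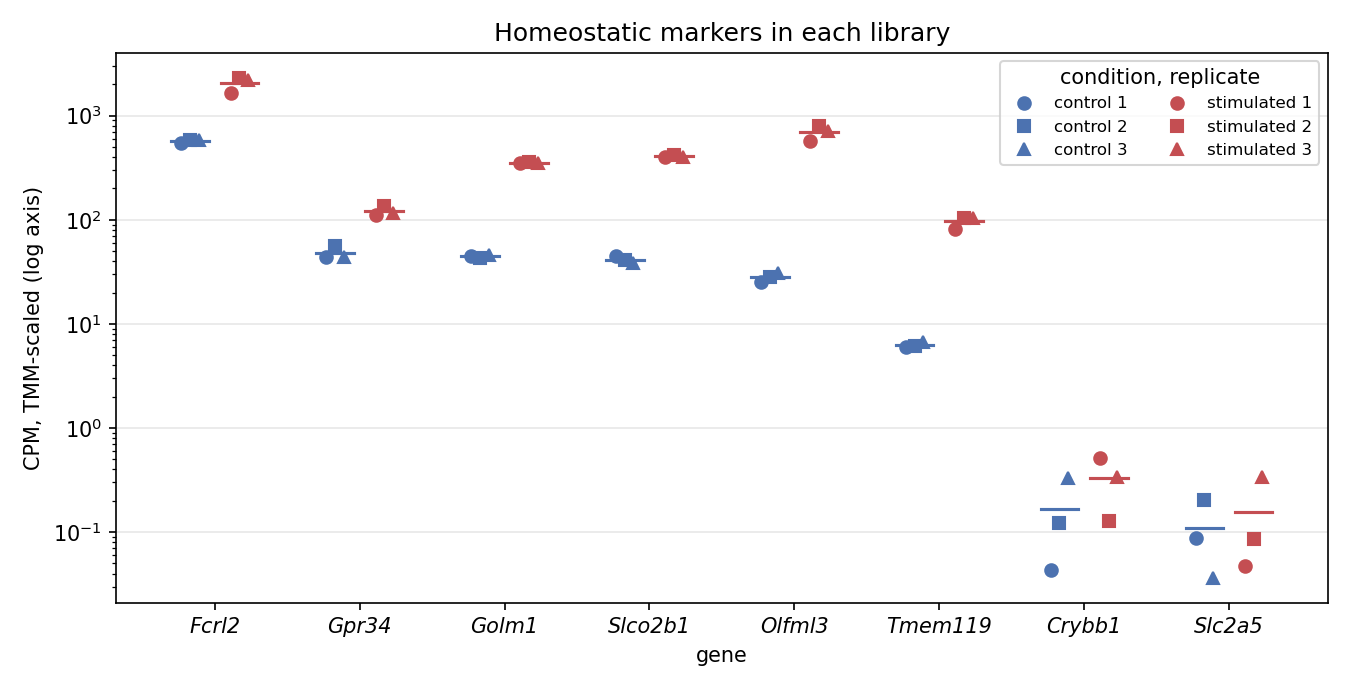
CPM (log axis) of the 8 markers in each of the 6 libraries, blue for control and red for stimulated, with the symbol giving the replicate and the bar the mean. The red points lie above the blue ones for 6 genes, while Crybb1 and Slc2a5 stay under 1 CPM and mix.

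In counts, 6 of the 8 markers were called higher at an adjusted p under 0.05, 0 lower and 2 fell under the filter on low counts. Each of the 6 had at least 137 counts in every library, so none passed the filter through one condition alone. Over all genes tested, 14.7% were called higher and 15.2% lower (29.8% in either direction), and 5.9% were called higher with at least a doubling. The 6 also had every stimulated library above every control library, a pattern found for 21.4% of genes tested. The markers together took 0.0745% to 0.081% of all counts in control and 0.324% to 0.369% in stimulated libraries.

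The balance of calls over all genes depended on the scaling. Of the genes called, 49.1% were higher in the main comparison, 32.3% when library size alone was used and 21.4% when libraries were scaled to the 10 pan-microglial genes. The median log2 fold change of all genes tested was 0.0079, -0.121 and -0.283 in these fits. Ctsd, a lysosomal protease, took 2.06% to 2.37% of counts in control and 5.05% to 7.11% in stimulated libraries. The 6 markers were called higher under each scaling, and the lowest value was 1.03 for Gpr34 when scaled to the pan-microglial genes.

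Levels were compared between genes only per length, as length- and depth-scaled fragment counts (FPKM). In control libraries Fcrl2 stood first with a mean of 279 FPKM, followed by Olfml3 at 16.4, Golm1 at 12.3, Slco2b1 at 7.89, Gpr34 at 6.92 and Tmem119 at 2.91 FPKM. Crybb1 (0.153 FPKM) and Slc2a5 (0.0364 FPKM) came last. The libraries of neighbouring genes in this order were separate except for Slco2b1 and Gpr34 and for Crybb1 and Slc2a5, which overlapped.

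In stimulated libraries the order was Fcrl2 with 911 FPKM, Olfml3 with 368, Golm1 with 88.4, Slco2b1 with 70.0, Tmem119 with 40.6, Gpr34 with 15.8, Crybb1 with 0.288 and Slc2a5 with 0.0470 FPKM. No neighbours overlapped, although Crybb1 and Slc2a5 are set apart here by single reads. Tmem119 and Gpr34 had changed places, and Fcrl2, which held 85.7% of the summed FPKM of the 8 markers in control cells, held 61.0% in stimulated cells as Olfml3 went from 5.04% to 24.6%. Ranked by mean FPKM among the 41079 genes, Tmem119 moved from place 9026 to 1254 and Olfml3 from 3402 to 123, while Fcrl2 moved from 196 to 48. These places and shares rest on the gene lengths behind the deposited FPKM. Those values imply 7226 bases for Gpr34 and 2254 for Tmem119, where the exons of the GENCODE M39 annotation cover 3068 and 3268 bases, and with the latter lengths Gpr34 stayed above Tmem119 in stimulated cells too. With GENCODE lengths the control order was Fcrl2, Gpr34, Slco2b1, Olfml3, Golm1 and Tmem119, with Olfml3 and Golm1 overlapping. The stimulated order was Fcrl2, Olfml3, Slco2b1, Gpr34, Golm1 and Tmem119, with Golm1 and Tmem119 overlapping. Olfml3 then held 2.75% and 14.9% of the summed FPKM in control and stimulated cells, and Fcrl2 80.1% and 63.1%.

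**Figure D2:**
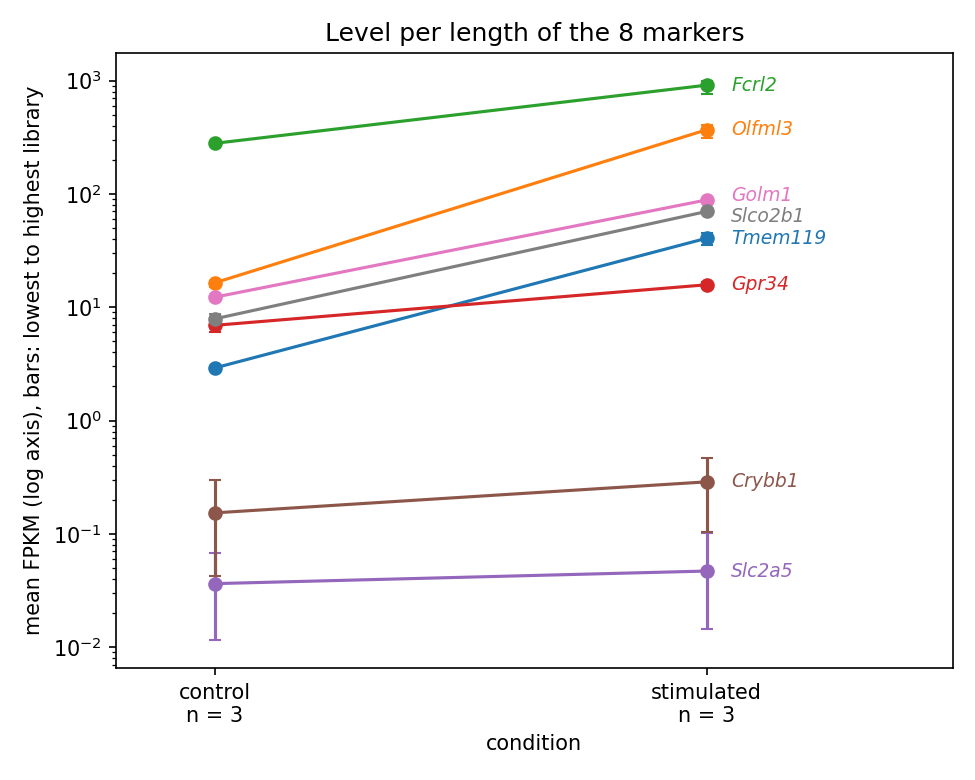
Mean FPKM (log axis) of the 8 markers in control and stimulated microglia (n = 3 each), with bars from the lowest to the highest library. With the deposited lengths Tmem119 goes from 2.91 to 40.6 FPKM and Gpr34 from 6.92 to 15.8, an exchange of places that GENCODE exon lengths reverse (28.0 against 37.2 in stimulated libraries), and Crybb1 and Slc2a5 stay below 1 FPKM.

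The relative size of the rises was read from ratios. Set against Tmem119 within the same library, which removes any scaling, Olfml3 was 5.32, 5.88 and 5.71 times as high in FPKM in control libraries and 8.70, 9.82 and 8.65 times in stimulated ones. Fcrl2 went the other way, from 95.9, 102 and 90.6 times Tmem119 to 21.3, 23.7 and 22.2 times. Gpr34 went from 2.28, 2.83 and 2.03 times to 0.426, 0.407 and 0.342 times. With GENCODE exon lengths the Gpr34 ratio was 7.79, 9.67 and 6.95 in control and 1.45, 1.39 and 1.17 in stimulated libraries, so it fell but stayed above 1. On the log2 scale of count ratios the difference between conditions was 0.68 for Olfml3, -0.64 for Slco2b1, -0.95 for Golm1, -2.10 for Fcrl2 and -2.60 for Gpr34. The groups did not overlap for any of these 5, nor for Crybb1 (-2.71) and Slc2a5 (-3.58), whose ratios rest on a few counts. Each of the 7 exact two-sided permutation tests gave p = 0.1, also after Benjamini-Hochberg adjustment, which is the smallest p that 3 against 3 libraries allow.

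**Figure D3:**
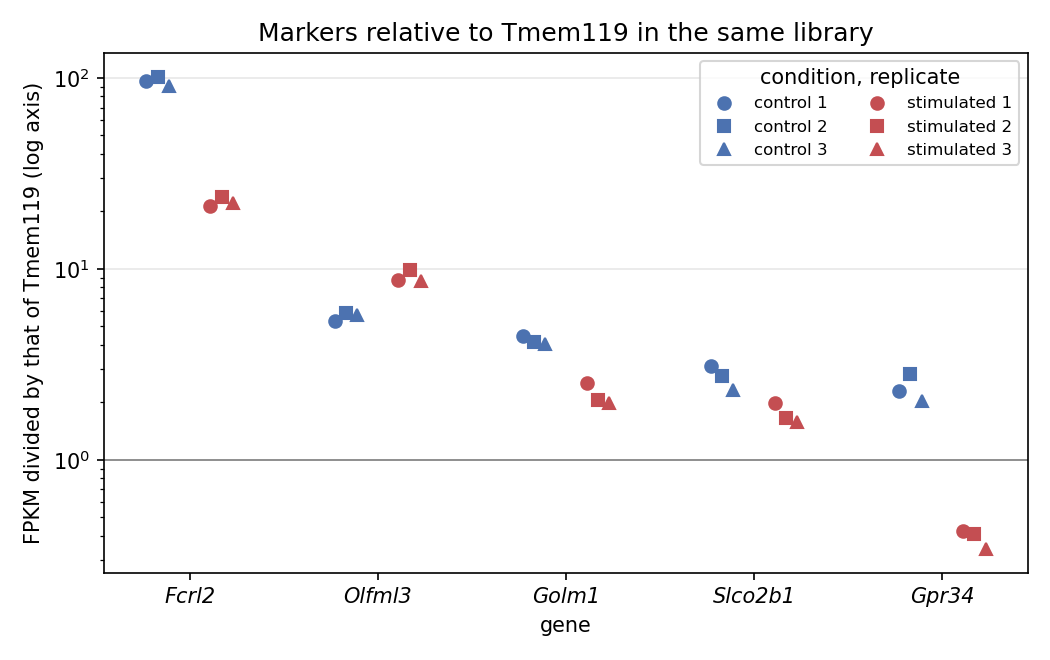
FPKM of 5 markers divided by that of Tmem119 in the same library (log axis), blue for control and red for stimulated libraries. Olfml3 is the 1 gene whose red points lie above its blue ones, and Gpr34 falls from above to below the line at 1, where both genes are equal, which it does with the deposited lengths but not with GENCODE exon lengths (1.17 to 1.45 in stimulated libraries).

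The promoter windows of the markers were examined for short motifs, since TGF-β acts through SMAD proteins and PU.1 is a lineage factor of microglia. RefSeq windows from 250 bases before to 50 bases after the start site (GRCm38.p6) were matched for 6 of the 8 markers, Fcrl2 under the symbol Fcrls and Slco2b1 with 3 windows. Tmem119 and Gpr34 were not matched. The motifs, searched on both strands, were the short SMAD element CAGAC, the palindromic SMAD element GTCTAGAC, the PU.1 core GAGGAA, the AP-1 motif TGANTCA, the IRF motif and the TATA box TATAAA. No marked match overlapped a match of another motif. Shown 5′ to 3′ on the gene's own strand are the marker that rose most, the one with the highest level, a transporter that rose and the transporter that was not detected above a few counts. Capitals mark CAGAC and GAGGAA or their reverse complements.
Olfml3, chr3:103737952-103738251, minus strand: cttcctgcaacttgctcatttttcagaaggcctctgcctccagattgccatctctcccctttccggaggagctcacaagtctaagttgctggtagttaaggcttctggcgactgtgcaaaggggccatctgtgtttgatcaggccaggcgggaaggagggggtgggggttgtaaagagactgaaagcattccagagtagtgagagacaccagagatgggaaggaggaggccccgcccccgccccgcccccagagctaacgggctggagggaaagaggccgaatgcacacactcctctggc
Fcrl2, chr3:87263475-87263774, minus strand: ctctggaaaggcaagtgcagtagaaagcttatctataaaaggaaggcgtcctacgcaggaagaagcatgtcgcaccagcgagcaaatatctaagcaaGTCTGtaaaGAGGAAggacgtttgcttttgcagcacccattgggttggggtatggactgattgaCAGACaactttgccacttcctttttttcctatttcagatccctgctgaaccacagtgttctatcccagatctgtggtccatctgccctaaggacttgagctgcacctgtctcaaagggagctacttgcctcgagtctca
Slco2b1, first window, chr7:99711291-99711590, minus strand: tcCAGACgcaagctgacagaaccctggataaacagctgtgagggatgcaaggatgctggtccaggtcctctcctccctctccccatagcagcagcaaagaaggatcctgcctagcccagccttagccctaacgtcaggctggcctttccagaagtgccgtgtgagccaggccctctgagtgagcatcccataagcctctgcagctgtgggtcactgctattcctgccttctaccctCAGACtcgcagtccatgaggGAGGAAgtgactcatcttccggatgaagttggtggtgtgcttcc
Slc2a5, chr4:150119094-150119393, plus strand: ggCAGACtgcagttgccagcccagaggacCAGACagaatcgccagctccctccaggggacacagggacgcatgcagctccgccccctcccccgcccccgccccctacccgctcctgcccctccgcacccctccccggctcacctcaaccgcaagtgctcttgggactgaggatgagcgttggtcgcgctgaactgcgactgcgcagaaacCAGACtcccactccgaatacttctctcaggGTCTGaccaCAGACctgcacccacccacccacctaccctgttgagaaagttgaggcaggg

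Matches to CAGAC were found in markers that rose and in those near detection. Olfml3, up 24.7-fold, held none of the 6 motifs in its window, whereas Slc2a5, near 0 counts, held CAGAC 5 times. Fcrl2 held it at -153 and -89, counting from the start site as 0, with the PU.1 core at -144 and a TATA box at -217. The first Slco2b1 window held it at -248 and -14, with the PU.1 core at 6 and an AP-1 match at 13. Golm1 had 1 CAGAC at -200 and Crybb1 1 at -41. Of all 32851 windows, 49.6% held CAGAC, 28.3% GAGGAA, 13.6% TATAAA, 7.81% TGANTCA, 3.44% the IRF motif and 0.21% GTCTAGAC. A match describes the letters of these windows only.

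Within 50 kb of the markers lay 33 other annotated genes, of which 18 were tested, 6 called higher and 2 lower, with a median log2 fold change of 0.21. The shares over all genes tested were 14.7% higher and 15.2% lower. Selplg, encoding the P-selectin ligand and itself a microglia marker, lies 18020 bases from Tmem119 and rose (log2 1.42). Tpbgl near Slco2b1 also rose (log2 1.51), as did the lncRNA Gm34280, which overlaps Slco2b1 on the opposite strand by 78 exonic bases and had 81 counts in all (log2 2.82). Gpr157, 5811 bases from the nearly silent Slc2a5, rose as well (log2 1.38). Hipk1, 1806 bases from Olfml3, rose by a log2 of 0.46, beside 4.63 for Olfml3 itself. Cask, on the opposite strand around Gpr34, fell by 0.60 on the log2 scale, and so did the lncRNA Gm34836 nearby (by 0.92), while Gpr34 rose.

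Relatives of the markers, taken by gene family, name, compartment or pathway, were called in both directions. Of 66 related genes in the tables, 36 were tested, with 10 higher and 6 lower, beside 14.7% and 15.2% of all genes tested. Their median log2 fold change was 0.19, beside 3.14 for the 6 markers and 0.0079 for all genes tested. Among the organic anion transporters, Slco5a1 rose from 11, 12 and 10 counts in control to 92, 60 and 76 in stimulated libraries (log2 2.98) and Slco4a1 rose by 0.84, whereas Slco2a1 and Slco3a1 gave 0.21 and 0.17 without passing the test. Among 6 tested genes of sugar transport and metabolism, Slc2a3 (log2 0.97), Slc2a1 (0.53) and Slc2a9 (0.36) were higher and Slc2a6 fell by 0.72. Khk, an enzyme of fructose metabolism on the same list, gave -0.16 without passing the test. Neither those 3 rises nor that of Slco4a1 (log2 0.54, adjusted p = 0.095, edgeR) were called when libraries were scaled to the pan-microglial genes, while Slco5a1 was.

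Fc receptors and Fc receptor-like genes split in direction. Fcrlb rose (log2 1.40, at 17 to 54 counts per library), while the activating receptors Fcgr4 and Fcgr1 fell by 1.30 and 0.34 and the other 3 tested did not pass. Of the olfactomedin family, Olfml2b rose (log2 1.68) and Olfm4 was lower, with 20, 29 and 28 counts in control and 0, 1 and 0 in stimulated libraries, and 5 others did not pass. Of 7 tested genes of the Golgi and endoplasmic reticulum listed beside Golm1, Golim4 (log2 0.54), Gorasp2 (0.33) and Gorasp1 (0.31) were called higher and none lower. When scaled to the pan-microglial genes, 0 of the 7 were called. Among genes named as crystallins, Crybg1 fell by 2.16 and the other 3 tested, Cryba4, Crybg3 and Cryab (an α-crystallin of another family), did not pass.

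For Gpr34 the receptors and enzymes around its ligand were also read. Of its receptor relatives, P2ry14 fell by 1.65 on the log2 scale and P2ry10b, another lysophosphatidylserine receptor, gave -0.29 without passing the test. Of 8 tested genes of lysophosphatidylserine metabolism, Abhd12, a lipase that degrades the lipid, rose (log2 0.78), as did the acyltransferases Lpcat1 (0.76) and Lpcat3 (0.66). Abhd16a, which produces it from phosphatidylserine, fell by 0.38. Scaled to the pan-microglial genes, Abhd12 and Abhd16a kept their calls and the acyltransferases did not.

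The other homeostatic genes were also called in both directions. Of 36 listed, 35 were tested, and 22 were higher, 4 lower and 9 not called, with a median log2 fold change of 0.72. All genes tested gave 14.7% higher and 15.2% lower. The count of higher calls ran from 17 to 25 and that of lower calls from 3 to 5 over the alternatives. Itgb5, an integrin subunit, rose most, from 278 ± 6.33 to 2383 ± 318 CPM (SD, n = 3; log2 3.10, adjusted p = 1.5e-07, edgeR), followed by Ecscr at 3 to 8 counts in control and 27 to 47 in stimulated libraries (log2 2.79). Entpd1, an enzyme that degrades extracellular ATP, fell by 0.77 on the log2 scale. Of the 10 pan-microglial genes, 3 were higher and 2 lower, with a median of 0.32. The lists share members, Csf1r among them.

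**Figure D4:**
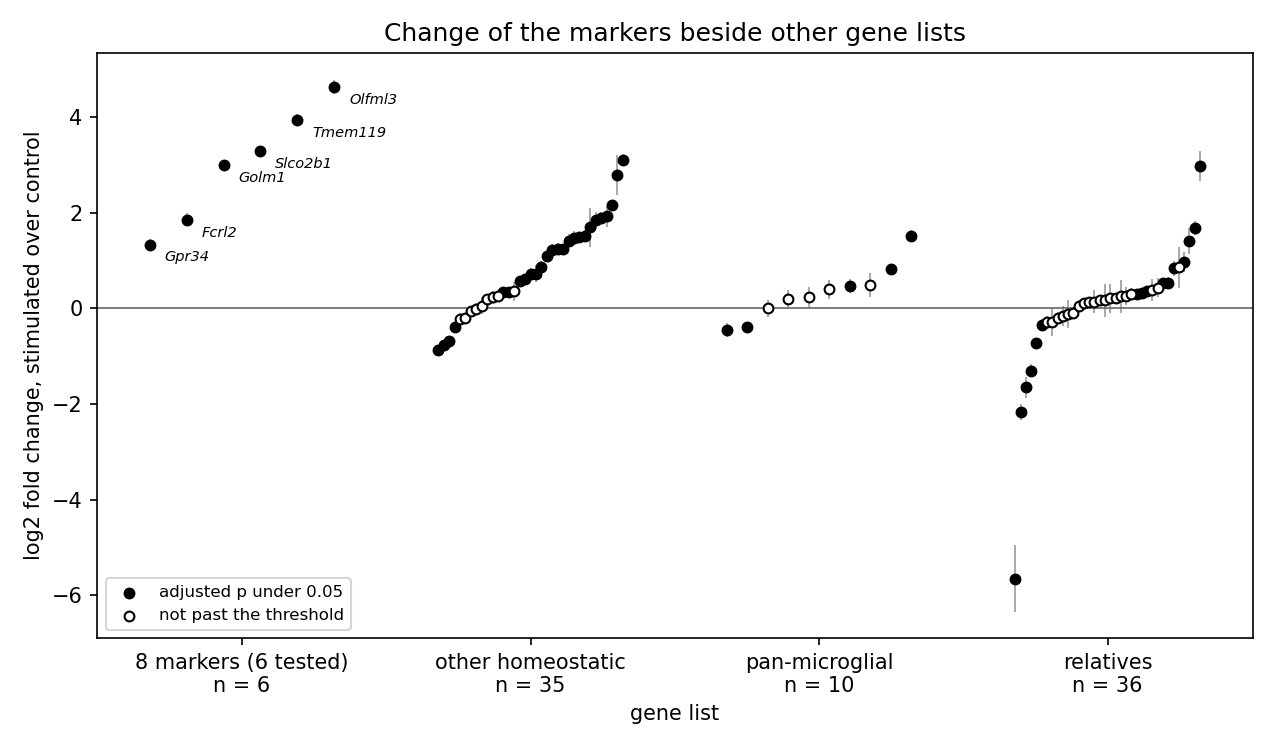
Log2 fold change, stimulated over control, of each tested gene in 4 lists, sorted within a list, with filled points past an adjusted p of 0.05 (edgeR) and lines of 1 SE. The 6 tested markers lie between 1.33 and 4.63, whereas the 35 other homeostatic genes reach from below 0 to 3.10 and the 36 relatives of the markers from -5.65 (Olfm4) to 2.98.

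The genes whose course over the 6 libraries was most like each marker were found by the root mean square distance between log2 CPM values centred on their own mean, among 10478 genes with a mean of at least 5 CPM. Olfml3 was nearest to Pmepa1, a TGF-β-induced feedback protein (distance 0.139), then to Chst1 (0.223) and Ache (0.233). Tmem119 was nearest to Chst2 (0.128) and Mcam (0.152). Fcrl2 was nearest to Slc46a1 (0.0607), Gde1 and Pxdc1, and Gpr34 to Pcyox1l (0.0571), Nsmce3 and Bmf. Golm1 was nearest to Plk3 (0.0663), Pald1 and Whrn, and Slco2b1 to Mtus1 (0.0846), B430010I23Rik and Asap3. With 2 conditions this distance mainly reflects the size of the rise, and the 6 libraries are shared by all genes.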

How the data were processed

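Paired-end RNA-seq was measured in 6 libraries. Mapping by the authors used HISAT2 and the mm39 build, and featureCounts gave one raw value per gene; versions, strand setting and annotation are not given in the sources used here. The deposited counts are raw, and the FPKM values deposited by the authors equal each count divided by a gene and a library constant, within 0.001 log2 for 100% of values of 9963 genes. Gene lengths were implied from FPKM, counts and library totals, approximately.

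Libraries were grouped by the labels. Counts were filtered with filterByExpr (14618 genes kept), scaled by TMM and tested with edgeR 4.0.16 (R 4.3.3) by the quasi-likelihood test; p-values were adjusted by Benjamini-Hochberg over all genes tested, with a threshold of 0.05. The test gives no standard error, so each SE was derived as the absolute log2 fold change divided by the square root of the test's F value. The coefficient of variation between replicates was 0.128. The script was tested on simulated data. Ratios were compared by exact permutation (scipy 1.17.1). For the alternatives, other scalings, filters, a replicate block, DESeq2 1.42.0, limma 3.58.1 on log2(FPKM + 1) and log2(FPKM + 0.1), and each library left out were used.

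The rule for the markers used gene symbols and no measured value, but the markers, gene lists and tests were chosen with earlier results of these data known, so no list is independent evidence of its direction. All 8 markers were named in full; of each list, up to 4 genes with the highest and lowest log2 fold changes, or all tested where 5 or fewer, and for each marker the 3 nearest genes, except that some of these are not reported here. Ctsd, Slc2a9, Gorasp1, Lpcat3, Flt1, Mrc1, F13a1, Pf4 and Aldh1l1 were named after their values were seen. Gene coordinates are from GENCODE M39 (GRCm39) and promoter sequences from RefSeq (GRCm38.p6).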

Additional observations from a re-analysis of the deposited data

How the results depend on the processing

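The 6 tested markers kept their direction and their call in each of 16 alternatives. Their log2 fold changes ran from 4.31 to 4.76 for Olfml3, 3.41 to 4.04 for Tmem119, 2.99 to 3.35 for Slco2b1, 2.70 to 3.00 for Golm1, 1.53 to 1.98 for Fcrl2 and 1.03 to 1.45 for Gpr34, and the largest adjusted p was 0.0036, for Gpr34 scaled to the pan-microglial genes (edgeR). With the replicate number as a block, 6 markers were higher and the log2 fold change of Tmem119 was 3.94, with 2401 genes higher and 2523 lower against 2142 and 2218 without it. Deviations of same-numbered libraries correlated at 0.273, -0.012 and 0.185, and those of differently numbered libraries at -0.294 to 0.189. Whether the numbers pair the samples cannot be told from so few libraries. The block changed no call of a marker. Leaving out each library moved the Olfml3 to Tmem119 difference between 0.62 and 0.71 and the Fcrl2 to Tmem119 difference between -2.14 and -2.06. Over all genes, 793 were higher and 2918 lower when scaled to the pan-microglial genes, and 1176 higher and 2962 lower by limma on log2(FPKM + 1) with a mean of at least 1 FPKM. The levels depended on gene length. With exon lengths from GENCODE, an alternative chosen after seeing the data, control means were 139 FPKM for Fcrl2, 16.3 for Gpr34, 6.93 for Slco2b1, 4.75 for Olfml3, 4.32 for Golm1 and 2.01 for Tmem119. Stimulated means were 452 for Fcrl2, 106 for Olfml3, 61.5 for Slco2b1, 37.2 for Gpr34, 31.2 for Golm1, 28.0 for Tmem119 and 0.0732 for Crybb1. Depth limits Slc2a5 and Crybb1, which had 1 to 11 counts per library.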
